A study of Gossypium barbadense and Gossypium hirsutum with 8 samples.

Results

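The genes described here are the abundant transcripts of cotton fiber: the 64 of 59006 listed genes that reached at least 100 RPKM in each of the study's 8 libraries. RPKM counts reads per kilobase of gene relative to the size of the library, as deposited by the authors. The libraries were made from total RNA of fibers of Gossypium barbadense at 5, 10, 15 and 20 days post anthesis (DPA) and of Gossypium hirsutum at the same 4 ages. There was 1 library per species and stage, and no further allele or treatment is named for any group. The stages are those of the source labels, whereas the titles of the last stage carry the number 25. The labels do not say how many plants went into a library, so the p-values below measure only how evenly a difference recurred over these libraries. The genes were chosen by their RPKM levels in all 8 libraries, so the levels are given as a description. The floor also bounds the differences that could be seen, because a gene that is low in 1 library cannot be among the 64.

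A cotton fiber is a single outgrown cell of the seed coat. It first elongates over weeks, driven by turgor and by loosening of its primary wall, and then fills with a thick secondary wall that is almost pure cellulose. Both species are tetraploids with an A and a D subgenome, so that most genes are present as a pair of similar copies, called homeologues, on chromosomes of the same number. G. barbadense is grown for its longer and finer fibers, and G. hirsutum, upland cotton, supplies most of the world's crop. An identifier such as Gh_A05G1347 gives the subgenome and chromosome (A05) and the gene's number in the order along it, and a Sca identifier lies on an unplaced scaffold. The files pair no identifier with a gene name, and 0 of the 59006 identifiers matched the 74561 genes of the reference table. What these genes encode is therefore not given, and the fiber label could not be checked against named marker genes.

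Of the 64 genes, 28 carried an A identifier, 27 a D identifier and 9 a scaffold identifier. Scaffolds held 14.1% of the 64 genes, against 3.98% of all listed genes. The genes were spread over 22 of the chromosomes, with 6 each on A13 and D13 and no more than 4 on any other. Just inside the floor stood Gh_A01G1361 and Gh_A01G1404, whose lowest values were 100.4 and 100.8 RPKM, both in G. hirsutum at 20 DPA. Just outside stood Gh_A07G0179, at 99.4 RPKM in G. barbadense at 5 DPA, and Gh_D01G1645, at 98.3 RPKM in G. hirsutum at 20 DPA. In single libraries, between 156 genes (G. hirsutum at 5 DPA) and 849 genes (G. barbadense at 10 DPA) reached 100 RPKM, and 1247 genes did so in at least 1 library. A further 71 genes reached it in 7 of the 8 libraries, and for 45 of those the exception was G. hirsutum at 5 DPA, the library with the smallest summed RPKM.

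The values rest on many reads. The RPKM values of each of the 64 genes were whole multiples of what 1 read is worth, within 0.0595 reads in all 8 libraries, so that the reads could be read back. They numbered from 65 to 50123 per gene and library, with a median of 805. At 65 reads the exact Poisson interval (95%) runs from 50.2 to 82.8 reads, and it covers counting error only. Relative to G. barbadense at 5 DPA, the library size in the scaling lay between 0.975 and 1.009 for the libraries of 5 to 15 DPA. At 20 DPA the G. barbadense library had 0.561 and the G. hirsutum library 0.579, so those libraries hold fewer independent reads per RPKM. A smaller library and reads counted in steps of 2 cannot be told apart from the values. Either way, both 20 DPA libraries differed in this from all libraries of 5 to 15 DPA. A change at 20 DPA and this difference between libraries therefore cannot be told apart. The summed RPKM differed 3.64-fold between libraries. The same steps gave relative gene lengths. The 64 genes were short: their median length was 0.389 of the median over these and 12332 other genes whose length could be read in the same way, and 59 of the 64 were shorter than that median. The shortest, Gh_A09G0517, had 0.175 of the median length and the longest, Gh_D12G1222, 1.23 times it. Levels of different genes are compared below per length only.

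The 64 genes took a larger part of the summed RPKM in older fibers. In G. barbadense they held 14.01%, 16.4%, 27.4% and finally 36.6% over the 4 stages. In G. hirsutum they held 17.8%, 21.8%, 31.5% and finally 31.5%. The share was thus lower in G. barbadense than in G. hirsutum at 5, 10 and 15 DPA (differences of -3.84, -5.46 and -4.12 percentage points) and higher at 20 DPA (5.06 points). The RPKM summed over the 64 genes, as deposited, was higher in G. barbadense than in G. hirsutum at every stage, with ratios of 1.47, 1.16, 1.31, then 1.26 with age. With median-of-ratios factors, which scale each library by its median ratio to the mean library, these ratios were 0.662, 0.718, 1.12, then 1.25, so that the order turned at 5 and 10 DPA. In such bulk RNA, fewer cells of a type and less RNA per cell cannot be told apart. With 1 library per species and stage, none of these differences has a replicate check.

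The share can be split between the 13 genes with a mean above 3000 RPKM over the 8 libraries and the rest. The split was made after the values were seen, at a 2.09-fold gap between means of 3019 and 1442 RPKM. A high mean favours genes with large values in some libraries, so the contrast between the sets is partly built into the split and is given as a description. In G. barbadense the 13 genes held 6.26%, 9.11%, 18.03%, then 28.4% of the summed RPKM with age, and in G. hirsutum 10.8%, 13.6%, 24.4%, then 24.98%. The other 51 genes held between 6.52% and 9.35% in every library, with the lowest share in G. hirsutum at 20 DPA and the highest in G. barbadense at 15 DPA. Among the 13 genes the median ratio of 20 DPA over 5 DPA was 10.7 for G. barbadense libraries and 11.7 for G. hirsutum libraries, and among the other 51 genes it was 1.21 for G. barbadense and 1.78 for G. hirsutum. The most abundant gene of every library was one of the 13.

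**Figure D1:**
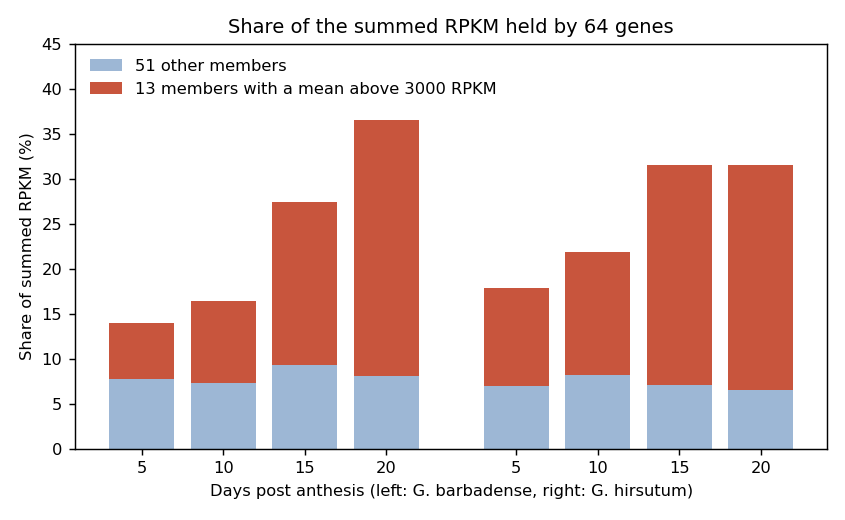
Share of the summed RPKM (%, bar height) held by the 64 genes in each library, split into the 13 genes with a mean above 3000 RPKM (red) and the other 51 (blue), by days post anthesis, with G. barbadense on the left and G. hirsutum on the right. The blue part stays between 6.52% and 9.35%, while the red part spans 6.26% to 28.4%.

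The courses of the 13 most abundant genes fell into a few shapes. Gh_D05G1514 had the highest mean of all and stood at 809.5, 4431, 11345, then 8700 RPKM at 5, 10, 15 and 20 DPA in G. barbadense, and at 1400.1, 3958, 6900.3, then 5902 RPKM in G. hirsutum. It was highest at 15 DPA in both species, and its range over the stages of one species overlapped that of the other. Its 20 DPA level was above its 5 DPA level by 2.75 on the log2(RPKM + 1) scale (SE 0.35, over both species; limma, Benjamini-Hochberg adjusted p = 0.000456). Gh_A05G1347 followed it closely, with a log2 change of 2.80 (SE 0.36, limma adjusted p = 0.000426). After quantile normalization the changes were 0.67 for Gh_D05G1514 and 0.78 for Gh_A05G1347 and did not pass (adjusted p = 0.353 and 0.392).

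Gh_A06G0811 climbed to the highest single value of the table. It stood at 975.4, 2175, 2845, then 13954 RPKM with age in G. barbadense and at 369.9, 3171, 4625, then 8660 RPKM in G. hirsutum. Both species were lowest at 5 DPA and highest at 20 DPA. Gh_A03G1623 stood at 729.7, 974.7, 2254, then 8546 RPKM in G. barbadense and at 308.7, 2416, 4000, then 12142 RPKM in G. hirsutum. Its 20 DPA level was above its 5 DPA level by 4.42 (log2, SE 0.48, limma adjusted p = 0.000121), the largest change among the 64 genes. Gh_D02G2038 had nearly the same change (4.39, SE 0.49, limma adjusted p = 0.000143). Gh_Sca131739G01 stood at 268.5, 1788, 5633, then 8035 RPKM in G. barbadense and at 732.1, 940.7, 1984, then 5284 RPKM in G. hirsutum, also highest at 20 DPA in both.

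A different course was that of Gh_A09G2303. It stood at 784.7, 1828, 3400, then 349.6 RPKM in G. barbadense, where it was highest at 15 DPA and lowest at 20 DPA. In G. hirsutum it stood at 1564, 9029, 7200, then 1871 RPKM and was highest at 10 DPA, where it was the most abundant gene of the library. It was above its G. barbadense level at each stage. Gh_A09G2303 differed between stages (limma F-test over the 3 stage terms, adjusted p = 0.00291, but 0.0824 with median-of-ratios factors), although its 20 and 5 DPA levels did not differ past the threshold (log2 difference -0.45, adjusted p = 0.498).

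**Figure D2:**
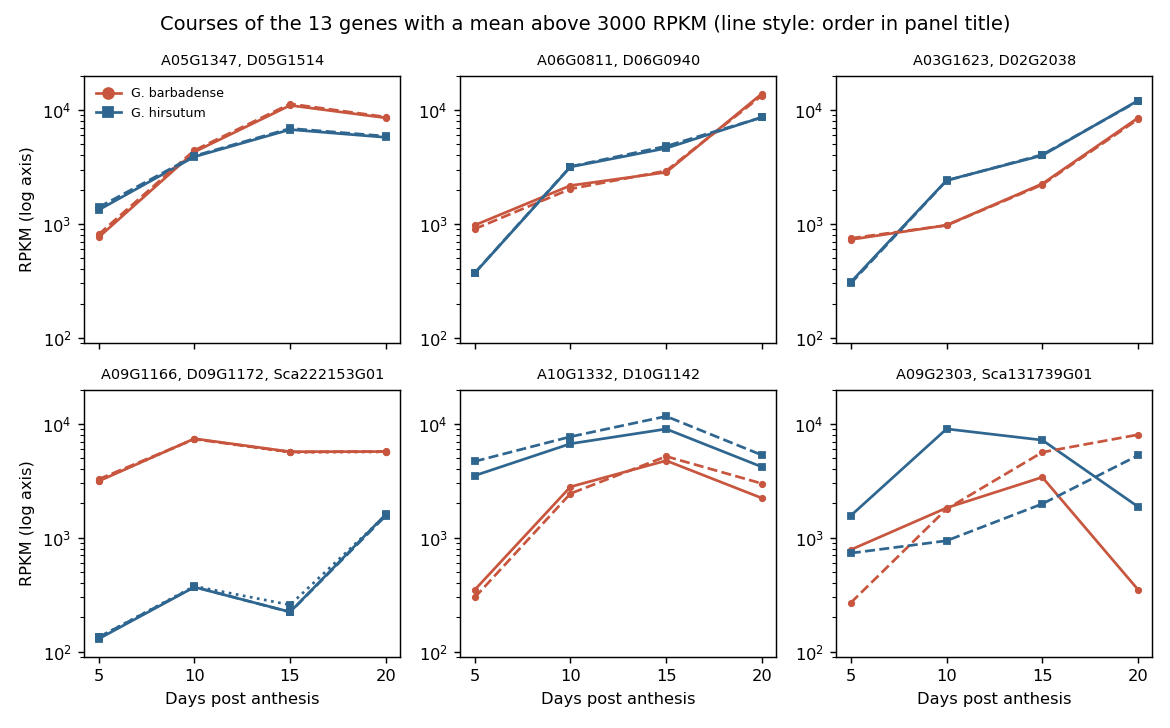
RPKM (log axis) against days post anthesis for the 13 genes with a mean above 3000 RPKM, with G. barbadense in red circles and G. hirsutum in blue squares, 1 library per point, and identifiers given without their Gh_ prefix. Lines of the paired identifiers lie on one another in 4 panels, and the species are farthest apart for Gh_A09G1166, Gh_D09G1172 and Gh_Sca222153G01.

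Between 5 and 20 DPA, over both species, 16 of the 64 genes (25%) rose and 0 fell (limma with a species term, Benjamini-Hochberg adjusted p under 0.05 over 20356 tested genes). Of all tested genes 3.38% rose and 2.6% fell. Those genes mostly stood at lower levels than the 64, since only 1247 genes reached 100 RPKM in any library. With the filter raised to a mean of 5 RPKM, 13 of the 64 rose and 0 fell. Of the 7263 genes then tested, 566 rose and 388 fell. Whether level alone raises the share of calls was not tested. The median log2 change was 0.84 among the 64 genes and -0.49 over all tested genes. Both 20 DPA libraries were smaller or counted in steps, as given above, so stage and library cannot be told apart in this contrast. The floor acts on both directions, since a gene must stand at 100 RPKM both early and late. Of the 71 genes that missed it in 1 library, 14 did so in the G. barbadense library and 45 in the G. hirsutum library of 5 DPA. At 20 DPA 1 did so in the G. barbadense library and 4 in the G. hirsutum library. Counted as groups of identifiers within 20% of each other in every library, the 16 rising identifiers make up 9 of 48 groups. Apart from 10 of the 13 most abundant genes, the rising genes were Gh_D08G1228, Gh_D04G0204, Gh_D09G0792, Gh_A09G0789, Gh_A13G0294 and Gh_D13G2550. Gh_D08G1228, named after its values were seen, stood at 380.5, 984.0, 1845, then 1886 RPKM in G. barbadense and at 188.8, 773.6, 869.6, then 1390.0 RPKM in G. hirsutum, higher at each later stage in both (limma log2 change 2.59 with SE 0.41, adjusted p = 0.00193).

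The largest decreases missed the threshold. Gh_D05G0356 stood at 426.6, 1074, 702.8, then 104.0 RPKM in G. barbadense and at 252.9, 455.4, 302.1, then 103.7 RPKM in G. hirsutum (limma log2 change -1.65 with SE 0.50, adjusted p = 0.0679). Gh_A01G1361 stood at 809.4, 687.0, 423.1, then 191.3 RPKM in G. barbadense, lower at each later stage, and at 210.2, 509.3, 202.7, then 100.4 RPKM in G. hirsutum (limma log2 change -1.57 with SE 0.51, adjusted p = 0.0854). Both decreases passed after quantile normalization (adjusted p = 0.0120 and 0.0166) and with the sum outside the 64 genes (adjusted p = 0.0251 and 0.0359). The split of calls also moved with the scaling. With median-of-ratios factors 16 genes rose and 0 fell, all of them the same genes. After division by the summed RPKM outside the 64 genes, 14 rose and 5 fell, and after quantile normalization 3 rose and 6 fell. Of all 20356 tested genes, 1021 rose and 674 fell with median-of-ratios factors. With the sum outside the 64 genes 740 rose and 1575 fell, and after quantile normalization 889 rose and 539 fell. The larger share of rising genes among the 64 was thus not found after quantile normalization. Of the 64 genes, the 3 that rose under all 4 scalings were Gh_A03G1623, Gh_D02G2038 and Gh_A06G0811. Single libraries also moved the count: 9 genes passed without G. barbadense 5 DPA, 7 without G. barbadense 20 DPA and 6 without G. hirsutum 20 DPA.

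Any difference between stages was found for 23 of the 64 genes (35.9%), against 7.62% of all tested genes (limma F-test over the 3 stage terms, adjusted p under 0.05). With the filter raised to a mean of 5 RPKM, 16 of the 64 genes passed, as did 1045 of the 7263 genes then tested. How far the gap goes with the higher level of the 64 genes was not tested. Of the 23 genes, 12 did not pass the test of 20 against 5 DPA. Among them was Gh_D05G0508, also named after its values were seen. It stood at 203.1, 1510.5, 1593, then 135.3 RPKM in G. barbadense and at 151.6, 971.9, 1089, then 177.9 RPKM in G. hirsutum. It was high at 10 and 15 DPA and low at 5 and 20 DPA in both species, with no overlap between the middle and the outer stages (limma F-test adjusted p = 0.00104). It also passed with median-of-ratios factors, quantile normalization and the sum outside the 64 genes (adjusted p = 0.0284, 0.0118 and 0.00687). The count of 23 was 9, 6 and 11 under those scalings, and 2 genes passed under all 4. It was 0 without G. barbadense 20 DPA and 1 without G. hirsutum 20 DPA. Leaving out the libraries of 5 and 10 DPA one at a time gave 12 and 11 genes for G. barbadense and 13 and 11 for G. hirsutum.

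The stage of the highest level was the same in both species for 37 of the 64 genes (57.8%), against 47.6% of all tested genes. As deposited, both species were highest at 10 DPA for 20 genes, at 15 DPA for 9 and at 20 DPA for 8, and for 0 genes at 5 DPA. The member of highest mean that peaked at 10 DPA in both was Gh_D02G0538, at 408.2, 1285, 1134, then 497.1 RPKM in G. barbadense and 169.1, 371.9, 165.1, then 312.9 RPKM in G. hirsutum. The 10 DPA libraries had the largest summed RPKM of each species. With median-of-ratios factors, which scale those libraries down, both species were highest at 10 DPA for 0 genes and at 20 DPA for 22, and the shared count was 27 (42.2%, against 39.0% of all tested genes). The shared count was 22 after quantile normalization (34.4%, against 37.3%) and 29 with the sum outside the 64 genes (45.3%, against 37.6%). After quantile normalization both species were highest at 5 DPA for 11 genes, at 10 DPA for 3, at 15 DPA for 4 and at 20 DPA for 4. With the sum outside the 64 genes these numbers were 3, 2, 8 and 16 with age.

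How far a gene moved over the 8 libraries differed widely within the group. The ratio of the highest to the lowest library had a median of 6.71. It was under 3 for 7 genes and over 10 for 18. The steadiest was Gh_Sca143543G01, at 186.9, 210.7, 143.2, then 109.4 RPKM in G. barbadense and 149.1, 200.5, 127.3, then 140.2 RPKM in G. hirsutum, a 1.93-fold range. Gh_A11G1078 came next with a 2.33-fold range. The widest was that of Gh_A09G1166, 57.3-fold, followed by its near-equal partner Gh_Sca222153G01 (55.1-fold). The lowest library of the 8 was G. hirsutum at 5 DPA for 29 genes and G. barbadense at 5 DPA for 15. The order of the 64 genes by level changed between libraries: Spearman's rho across the 64 genes, which are not independent, ran from 0.16 (G. barbadense at 5 DPA with G. hirsutum at 15 DPA) to 0.89 (G. barbadense at 10 and 15 DPA), with a median of 0.54.

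**Figure D3:**
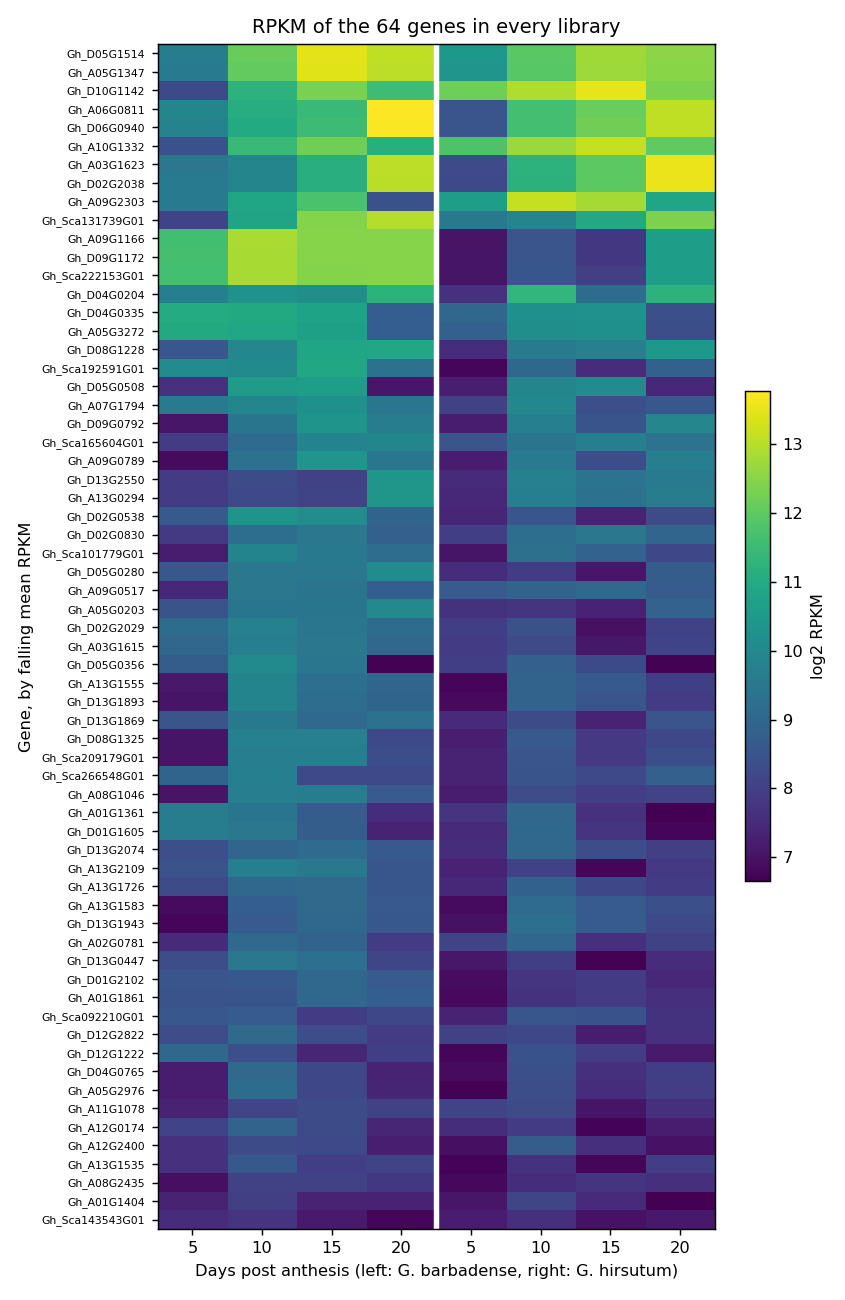
log2 RPKM (colour) of the 64 genes (rows, by falling mean RPKM) in the 8 libraries, by days post anthesis, with G. barbadense on the left and G. hirsutum on the right. Paired identifiers show the same colours in every column, and the 5 DPA columns, above all that of G. hirsutum, are the darkest for most genes.

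The series compares the 2 species through fiber development. The Gh_ identifiers belong to a G. hirsutum annotation, so the values of both species are listed under G. hirsutum genes. Whether reads of both species were placed equally well on those genes was not tested, and this bears on every species difference below. Over the 4 stages, 7 of the 64 genes (10.9%) were higher and 3 (4.69%) lower in G. barbadense than in G. hirsutum (limma with stage terms, Benjamini-Hochberg adjusted p under 0.05 over 20356 tested genes). Of all tested genes 1.46% were higher and 0.378% lower. Whether level alone raises such shares was not tested here either. The 10 genes are fewer independent cases than their number, since 3 of the 7 higher genes are the near-equal Gh_A09G1166, Gh_D09G1172 and Gh_Sca222153G01, so that the 10 identifiers make up 8 groups of near-equal identifiers. The median species difference, G. barbadense minus G. hirsutum, was 0.57 (log2) among the 64 genes and 0.49 over all tested genes. In 53 of the 64 genes the difference was positive as deposited. It was positive in 34 with median-of-ratios factors, 33 after quantile normalization and 32 with the sum outside the 64 genes, so that a large majority towards G. barbadense was found as deposited and not under those scalings.

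Gh_A09G1166 and the identifiers near-equal to it set the species furthest apart. Gh_D09G1172 stood at 3261, 7351, 5658, then 5718 RPKM in G. barbadense, against 133.4, 370.1, 222.1, then 1563 RPKM in G. hirsutum. These values rest on 4060, 8983, 6921 and 3995 reads in G. barbadense and on 162, 460, 279 and 1127 reads in G. hirsutum. Every G. barbadense library was above every G. hirsutum library. The ratio of G. barbadense over G. hirsutum was 24.4, 19.9, 25.5, then 3.66 with age. The difference over the stages was 3.86 (log2, SE 0.40, limma adjusted p = 0.000868) and passed under the other 3 scalings (adjusted p = 0.0155, 0.0261 and 0.00347). It missed the threshold when either 5 DPA library was left out (log2 difference 3.61, adjusted p = 0.0541 without G. barbadense 5 DPA and 0.0559 without G. hirsutum 5 DPA).

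The other genes higher in G. barbadense were nearer to the threshold. Gh_Sca192591G01 stood at 1086, 1068, 1924, then 632.5 RPKM in G. barbadense, against 108.1, 535.4, 187.4, then 455.9 RPKM in G. hirsutum, with no overlap (limma log2 difference 2.03 with SE 0.46, adjusted p = 0.0464). Gh_D02G0538, Gh_D05G0280 and Gh_D02G2029 had differences of 1.62, 1.58 and 1.52 (limma adjusted p = 0.0490, 0.0424 and 0.0467). None of these 4 passed under any of the other 3 scalings (adjusted p from 0.127 to 0.225). Without regard to the test and as deposited, all 4 G. barbadense libraries lay above all 4 G. hirsutum libraries for 12 of the 64 genes (18.8%). Of all tested genes 3.65% did so. The 12 include near-equal identifiers and are fewer independent cases than their number. These are Gh_A09G1166, Gh_D09G1172 and Gh_Sca222153G01, then Gh_D02G2029 with Gh_A03G1615, and Gh_D01G2102 with Gh_A01G1861. For 0 of the 64 genes did all 4 G. hirsutum libraries lie on top, against 1% of all tested genes. Neither count was made under the other scalings.

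Lower in G. barbadense were Gh_D10G1142, Gh_A10G1332 and Gh_A09G2303. Gh_D10G1142 stood at 298.5, 2443, 5182, then 2990.2 RPKM in G. barbadense, against 4682, 7714, 11652, then 5316 RPKM in G. hirsutum. Both species were highest at 15 DPA, and G. hirsutum was above G. barbadense at every stage. Its difference over the stages was -1.91 (log2, SE 0.39, limma adjusted p = 0.0362). It passed with the sum outside the 64 genes (adjusted p = 0.0459) and not with median-of-ratios factors or after quantile normalization (adjusted p = 0.116 and 0.101). Without either 5 DPA library the difference was -1.22 and did not pass (adjusted p = 0.143 without G. barbadense and 0.184 without G. hirsutum), and without either 10 DPA library it did not pass either (adjusted p = 0.120 and 0.115). Gh_A10G1332 likewise missed the threshold with median-of-ratios factors and after quantile normalization (adjusted p = 0.118 and 0.122). Gh_A09G2303, whose course is given above, differed by -1.70 (log2, SE 0.29, limma adjusted p = 0.0224) and passed under the other 3 scalings (adjusted p = 0.0372, 0.0284 and 0.00446). It missed the threshold when any 1 of the 5 and 10 DPA libraries was left out (adjusted p from 0.0826 to 0.146). As deposited, and not with median-of-ratios factors, the gap was largest at 20 DPA. There it rests on 452 reads in G. barbadense and 2496 reads in G. hirsutum, 5.35-fold more RPKM in G. hirsutum. The counts of species calls hung on single libraries. They were 0 without either 5 DPA library, 3 without either 10 DPA library, 6 without G. barbadense 15 DPA, 5 without G. hirsutum 15 DPA and 13 without either 20 DPA library. Of the 20356 tested genes, 2845 were higher and 166 lower without G. barbadense 20 DPA, and 2816 and 172 without G. hirsutum 20 DPA. Of the 64 genes 10 were higher and 3 lower in each case. The share that was higher was then close to that of all tested genes, and the share that was lower stayed above it.

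Within single stages each side is 1 library and there is no test. At 5 DPA G. barbadense was higher by 2-fold or more for 26 of the 64 genes (40.6%) and lower by as much for 4 (6.25%), against 44.6% and 7.89% of all tested genes. At 10 DPA 17 were higher and 8 lower (39.7% and 7.31% of all tested genes). At 15 DPA 30 genes (46.9%) were higher and 4 lower, against 32.3% and 11.5%. At 20 DPA 10 genes (15.6%) were higher and 1 lower, against 7.56% and 9.9%. These splits moved with the scaling and turned at the early stages. With median-of-ratios factors 5 genes were higher and 19 lower at 5 DPA, and 5 higher and 13 lower at 10 DPA. After quantile normalization 12 were higher and 16 lower at 5 DPA, and with the sum outside the 64 genes 9 were higher and 17 lower. The median log2 ratio of the 64 genes as deposited was 0.74, 0.52, 0.85, then 0.52 with age. With median-of-ratios factors it was -0.41, -0.16, 0.63 and 0.51, so that its sign turned at 5 and 10 DPA and held at 15 and 20 DPA. The genes furthest towards G. hirsutum differed by stage. At 5 DPA Gh_D10G1142 stood 15.7-fold and Gh_A10G1332 10.1-fold higher in G. hirsutum, while at 10 DPA Gh_A09G2303 stood 4.94-fold and Gh_D10G1142 3.16-fold higher there. At 15 DPA they were Gh_D13G2550 and Gh_A13G0294, 2.54-fold and 2.28-fold higher in G. hirsutum.

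**Figure D4:**
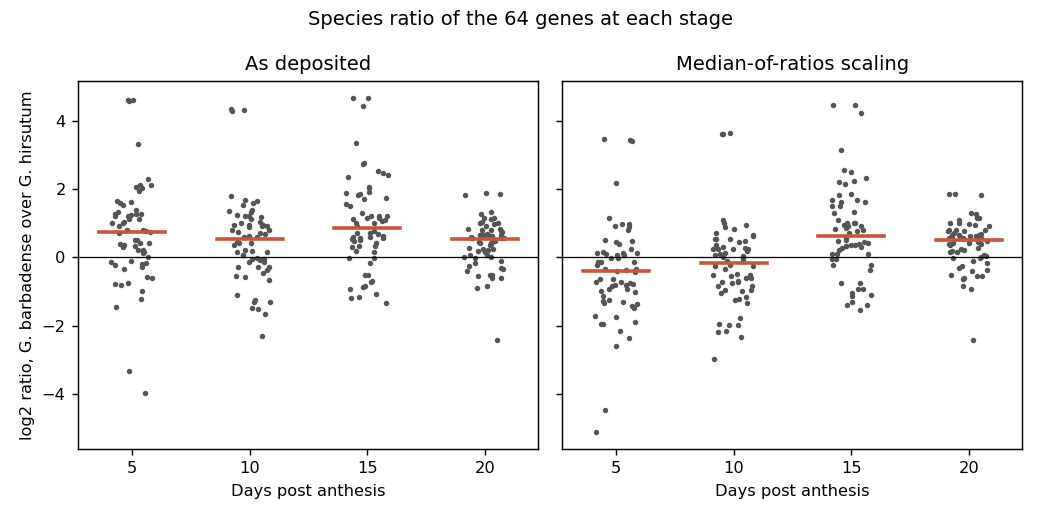
log2 ratio of G. barbadense over G. hirsutum for each of the 64 genes (dots) at each stage (days post anthesis), as deposited (left) and with median-of-ratios scaling (right), with the median as a red line. The medians are 0.74, 0.52, 0.85 and 0.52 on the left and -0.41, -0.16, 0.63 and 0.51 on the right.

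As deposited, G. barbadense was at all 4 stages higher for 28 of the 64 genes (43.8%) and lower for 4 (6.25%). The shares of all tested genes were 21.2% and 4.31%, and this was not counted under the other scalings. For the other 32 genes the sign differed between stages. A species difference in the change with age was tested as a difference between straight lines over age. Courses that rise and fall need not show one. A difference of this kind was found for 0 of the 64 genes and 0 of all tested genes (0%; limma, species by age term). Without adjustment, at p under 0.05, the numbers as deposited were 0 of the 64 and 734 of all 20356 tested genes. With median-of-ratios factors they were 8 and 1145, and after quantile normalization 7 and 1242. With the sum outside the 64 genes they were 7 and 1225. After adjustment 0 of the 64 passed under each of these scalings. Of the 64 genes, 43 were higher at 20 DPA than at 5 DPA in both species, 8 lower in both, 3 higher in G. barbadense alone and 10 higher in G. hirsutum alone. One gene, named after its values were seen, had nearly the same deposited RPKM in both species throughout: Gh_D02G0830 stood at 233.5, 593.0, 713.4, then 454.7 RPKM in G. barbadense and at 251.7, 596.6, 716.6, then 506.0 RPKM in G. hirsutum (limma log2 difference -0.07 with SE 0.30, adjusted p = 0.91). With median-of-ratios factors its ratio of G. barbadense over G. hirsutum was 0.418, 0.617, 0.856, then 0.892 with age.

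Many of the 64 genes formed couples across the subgenomes that were close in every library. Among all combinations of an A with a D member, 6 lay within 10% of each other in all 8 libraries and 14 within 20%. On chromosomes of the same number there were 80 combinations, of which 5 lay within 10% and 10 within 20%. Of the 676 combinations on chromosomes of other numbers, 1 lay within 10% and 4 within 20%. Those 4 joined A03 with D02 and A05 with D04. In tetraploid cotton the A02 and A03 chromosomes, and likewise A04 and A05, are known to have exchanged segments. Of the 729 combinations within a subgenome 0 lay within 20%. The 14 pairs took in 28 of the 64 genes. Among all listed genes, 1 further partner within 20% of a member was found, Gh_D12G0177 for Gh_A12G0174. It fell outside the 64 because it stood at 90.1 RPKM in G. hirsutum at 15 DPA.

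The closest pair was Gh_A03G1623 and Gh_D02G2038, which differed by at most 2.78% in any library, while they varied 39.3-fold and 39.9-fold between libraries. In G. barbadense their reads numbered 2915 and 2990, 3822 and 3814, 8849 and 8684, and 19159 and 18641 with age. In G. hirsutum they numbered 1203 and 1172, 9638 and 9576, 16121 and 16371, and 28088 and 27756. The A identifier thus took between 49.4% and 50.7% of the pair's reads in every library. The pair was picked for its closeness, so intervals for its share are given as a description. The exact binomial interval (Clopper-Pearson, 95%) held 50% in 7 of the 8 libraries. In G. barbadense at 20 DPA, where the share was 50.7%, it lay just above, from 50.2% to 51.2%. The next closest were Gh_A09G1166 and Gh_D09G1172, within 3.89%, with the interval holding 50% in all 8 libraries. Gh_A05G1347 and Gh_D05G1514 lay within 6.06%, and Gh_A06G0811 and Gh_D06G0940 within 7.91%.

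Most paired identifiers also had the same length. RPKM is itself given per length, so this is a description and no separate support for the pairs. Of the 14 A and D pairs within 20%, 11 had the same gene length as read from the steps, and in the remaining pairs the length ratio of A over D lay between 0.990 and 1.02. Among all combinations of an A with a D member, 21 had the same length, these 11 included. Pairs with a scaffold identifier within 20% numbered 3: Gh_Sca222153G01 with both Gh_A09G1166 and Gh_D09G1172, and Gh_Sca209179G01 with Gh_D08G1325, all of equal length. Over the 14 same-length pairs, scaffold pairs included, the interval for the first identifier's share of the reads held 50% in 90.2% of 112 cases, and the share lay between 45.7% and 54.4%. The pairs were chosen for near-equal RPKM, and at equal length this bounds the read shares near 50% in advance. These values are thus a description and no test of equality. Gh_A09G1166, Gh_D09G1172 and Gh_Sca222153G01 enter as 3 pairs, so the cases are not independent. How reads that fit several genes were assigned is not given in the sources used here, so reads of near-identical copies, and the levels of the copies, cannot be told apart. Counts of genes are counts of identifiers unless groups are named.

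**Figure D5:**
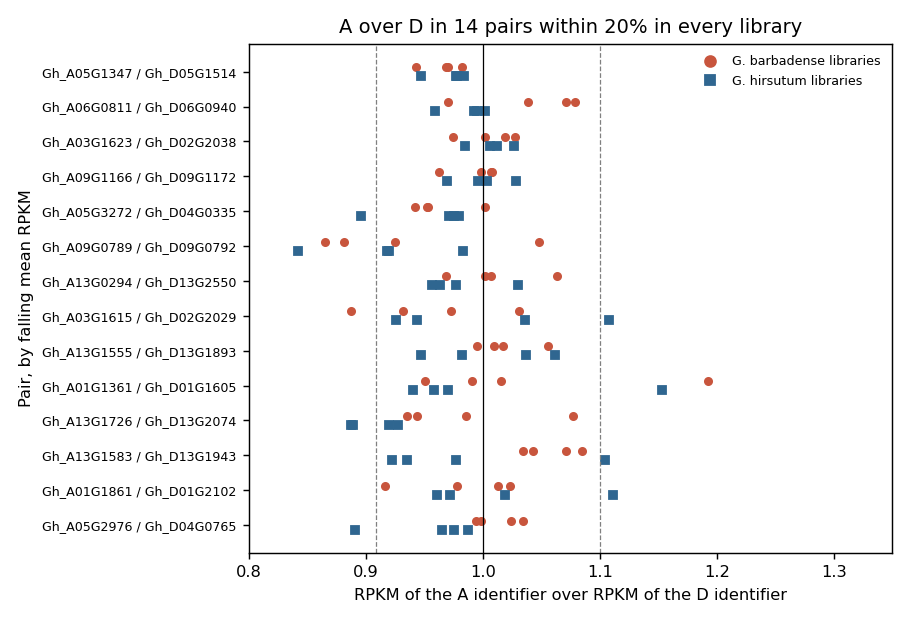
RPKM of the A identifier over RPKM of the D identifier (x axis) for the 14 pairs within 20% in every library, by falling mean RPKM, with 1 point per library, G. barbadense in red circles above G. hirsutum in blue squares. Dashed lines mark a ratio of 1.1 either way, within which all 8 libraries of 6 pairs lie.

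A pair of members on chromosomes of the same number that was not near-equal was Gh_A10G1332 and Gh_D10G1142. Of all members, Gh_A10G1332 had the course most like that of Gh_D10G1142, with a largest deviation of 0.40 (log2, after centring, over 8 libraries). The next was Gh_D05G1514, at 1.95. The ratio of Gh_A10G1332 over Gh_D10G1142 with age was 1.17, 1.15, 0.917, then 0.745 in G. barbadense, and 0.75, 0.868, 0.774, then 0.787 in G. hirsutum. The A identifier was thus the higher one in G. barbadense at 5 and 10 DPA and the lower one in the other 6 libraries. Whether these 2 genes are homeologues is not recorded in the files. For Gh_Sca131739G01, which had no partner within 20%, the most like courses were those of Gh_A05G1347 and Gh_D05G1514, with largest centred deviations of 1.99-fold and 2.01-fold.

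No 2 of the 64 genes had consecutive identifiers. The closest neighbours with high levels were Gh_A03G1615 and Gh_A03G1623, 8 numbers apart on A03. Their near-equal partners, Gh_D02G2029 and Gh_D02G2038, lay 9 numbers apart on D02. The neighbours did not share a course. Gh_A03G1615 stood at 511.7, 834.6, 715.8, then 531.5 RPKM in G. barbadense and at 235.7, 317.9, 139.2, then 272.5 RPKM in G. hirsutum, and was higher in G. barbadense at every stage (limma log2 difference 1.45 with SE 0.35, adjusted p = 0.0505). Gh_A03G1623, whose values are given above, was lower in G. barbadense at 3 of the 4 stages (limma log2 difference -0.35 with SE 0.34, adjusted p = 0.54).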

How the data were processed

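RNA of fibers was sequenced as 8 Illumina libraries, 1 per species and stage. The authors deposited RPKM values with 2 decimals, and all 8 columns were used, matched to samples by title. Tools named per the submitters' processing notes include cutadapt and Bowtie2, without role or version. The genome build and the handling of reads that fit several genes were not given in the sources used here. Members are genes at 100 RPKM or more in all 8 columns. The members, lists and rules were chosen with earlier results of these data known. Named were the 5 members of highest mean, those beside the floor, the 2 largest per direction and comparison, the steadiest and most variable, the closest pairs, the leading gene per peak stage, and the nearest identifiers. Genes named outside this rule are said to be so or are all the members of a count.

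Tests used limma 3.58.1 in R 4.3.3 (lmFit, eBayes with trend) on log2(RPKM + 1), two-sided, with Benjamini-Hochberg adjustment over the 20356 genes whose mean reached 1 RPKM. The models were species plus stage as factors, and species, age and their product. Whole reads were found as the smallest whole numbers, with 1 gene length, that gave all 8 values. The search was tested on simulated reads, with 2 libraries of smaller size among the 8, where 62 of 65 genes were solved. All 62 were exact up to a whole number that divides all reads and the length of a gene. The values cannot show such a number. Tables were handled in Python 3.11.15 with scipy 1.17.1, numpy 2.4.6 and pandas 2.3.3. Alternatives were other pseudocounts, filters, floors, scalings (median-of-ratios, quantile, sum outside the members), models and each library left out. No sequences are shown because none could be matched to the identifiers. Intervals cover counting error only.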

Additional observations from a re-analysis of the deposited data

Results flagged for a closer look

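Of the 64 genes, 13 (20.3%) had 20 DPA over 5 DPA ratios on opposite sides of 1 in the 2 species, against 30.7% of all tested genes, with 1 library per species and stage, and the difference was not tested for the genes as a group. The widest case was Gh_Sca192591G01, with a ratio of 20 DPA over 5 DPA of 0.582 for G. barbadense against 4.22 for G. hirsutum. Next came Gh_Sca266548G01, with 0.602 for G. barbadense against 2.77 for G. hirsutum. Both ratios were at least 1.5-fold away from 1 in these 2 genes only of the 13, and others were near 1, such as Gh_D02G2029 with 0.990 for G. barbadense against 1.05 for G. hirsutum. For 0 of the 13 was the change at least 2-fold in both directions. In the limma test of a species difference in slope over age, 0 of the 64 genes and 0 of all 20356 tested genes passed. That test takes each course as a straight line, so its outcome does not set these genes apart.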

How the results depend on the processing

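The members' species calls numbered 10 as reported. They numbered 3 of 16 genes at a floor of 200 RPKM, 3 with a pseudocount of 0.1, 0 with no filter and 3 with a mean of at least 5. They numbered 4 with median-of-ratios factors, 4 after quantile normalization, 6 with the sum outside the members and 0 without stage in the model. Of the 20356 tested genes, 15 were higher and 46 lower with median-of-ratios factors. The numbers were 11 and 49 after quantile normalization, and 39 and 88 with the sum outside the members. Leaving out single libraries gave 0 to 13 calls among the 64 genes. A floor of 50 RPKM gives 202 genes and a floor of 200 gives 16, so calls at those floors are out of these numbers. The 16 calls between 5 and 20 DPA became 27 at a floor of 50 and 8 at 200, 7 with no filter, 9 after quantile normalization and 7 without species in the model, with 6 to 17 on leaving out libraries. The 23 calls of any stage difference became 13 at a floor of 200, 14 with a pseudocount of 0.1, 0 with no filter, 9, 6 and 11 under the scalings in the order above, and 0 to 29 on leaving out libraries. The causes of these shifts were not tested. The median species difference of all tested genes was 0.49 as deposited and 0.13, 0.01 and 0.09 under the scalings in that order. The median share of the summed RPKM, 24.6%, was 34.4% at a floor of 50 (202 genes), 15.5% at 200 (16 genes) and 16.4% without the 5 most abundant genes, and 21.8% to 31.8% on leaving out libraries. The median log2 species ratio at 5 DPA was -0.41, -0.057 and -0.23 under the scalings in the order above. At 10 DPA it was -0.16, 0 and -0.20, at 15 DPA 0.63, 0.0113 and 0.18, and at 20 DPA 0.25 after quantile normalization. Near-equal A and D pairs numbered 2 within 5%, 14 within 20% and 10 within 10% in 7 libraries. Shared peak stages numbered 22 after quantile normalization. For Gh_A10G1332 the species difference in slope, 0.15 per day (log2), ran from -0.0568 without G. barbadense 5 DPA to 0.353 without G. barbadense 20 DPA, and it passed in neither. The model with stage compares the species within each stage, and no further pairing was possible with 1 library per group. Independent reads per RPKM are fewest at 20 DPA, where a smaller library and reads counted in steps of 2 cannot be told apart. The lowest value rests on 65 reads.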
